A study of Homo sapiens with 15 samples.

Results

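GATA6, HNF4A, TFF1, TFF2, TFF3, AGR2, LGALS4, TSPAN8 and ANXA10 are 9 genes that mark the classical lineage of pancreatic ductal adenocarcinoma. They were taken by symbol from a table of 25503 genes, and all 9 were found in it. The table came from RNA-seq of 2 established pancreatic cancer lines, AsPC-1 and Capan-1, transfected with small interfering RNA (siRNA). AsPC-1 was transfected with siRNA against B4GALT5, siRNA against B3GNT3 or a negative control siRNA (siNC), and Capan-1 with siRNA against B3GNT3 or siNC, which made 5 groups of 3 libraries. B4GALT5 and B3GNT3 are glycosyltransferases of the Golgi that extend the sugar chains of glycolipids and glycoproteins, and the series asks how they bear on MHC class I and CD8 T cells. Time after transfection, siRNA sequences and whether replicates were separate cultures are not given in the labels, so p-values measure only the spread between these libraries, which may be technical. The labels spell the second line as Capable-1 in one field and Capan-1 in the titles.

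Pancreatic ductal adenocarcinomas fall into a classical, epithelial subtype and a basal-like subtype with more squamous traits. GATA6 and HNF4A are transcription factors of the endoderm that maintain the classical programme, and loss of either is known to shift pancreatic cancer cells towards the basal-like state. The other genes belong to the gastric and intestinal traits of classical tumours: trefoil factors are secreted with mucus (TFF1, TFF2 and TFF3), AGR2 is a disulfide isomerase of the endoplasmic reticulum needed for mucin folding, TSPAN8 is a tetraspanin and LGALS4 a galectin that binds sugars at the cell surface, and ANXA10 is an annexin found in gastric epithelium.

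Promoter sequence from RefSeq (GRCh38.p14) was at hand for 6 of the 9 genes, in 8 promoters, and 4 are shown because they belong to the pair of genes with the widest difference between the lines (AGR2 and ANXA10) and to the pair that fell with B4GALT5 knockdown and also differed between lines (HNF4A and LGALS4). Each run is the 250 bases before a transcript start given by RefSeq, 5′ to 3′ on the gene's strand. That start lies inside the longer gene extents of the other annotation used below for AGR2, LGALS4 and ANXA10. Capitals mark matches to a GATA factor motif (AGATAA) or a TATA box (TATAAA) on either strand. The positions are chr7:16805000-16805249 on the minus strand for AGR2, chr4:168092287-168092536 on the plus strand for ANXA10, chr20:44355449-44355698 on the plus strand for the upstream promoter of HNF4A and chr19:38812946-38813195 on the minus strand for LGALS4.
AGR2: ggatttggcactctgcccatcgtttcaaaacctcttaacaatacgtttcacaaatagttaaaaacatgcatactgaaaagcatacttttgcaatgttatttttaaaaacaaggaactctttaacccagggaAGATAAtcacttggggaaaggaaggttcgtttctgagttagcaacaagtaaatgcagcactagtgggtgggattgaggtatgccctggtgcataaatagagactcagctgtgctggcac
ANXA10: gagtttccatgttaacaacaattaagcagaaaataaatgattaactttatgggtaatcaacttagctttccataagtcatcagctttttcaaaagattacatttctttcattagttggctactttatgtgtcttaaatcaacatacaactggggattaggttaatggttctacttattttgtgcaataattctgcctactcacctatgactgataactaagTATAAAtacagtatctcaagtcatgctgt
HNF4A: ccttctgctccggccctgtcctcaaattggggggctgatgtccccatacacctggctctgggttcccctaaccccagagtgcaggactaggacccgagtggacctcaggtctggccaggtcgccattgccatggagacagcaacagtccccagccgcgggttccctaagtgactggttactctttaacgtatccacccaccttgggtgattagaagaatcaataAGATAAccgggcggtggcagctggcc
LGALS4: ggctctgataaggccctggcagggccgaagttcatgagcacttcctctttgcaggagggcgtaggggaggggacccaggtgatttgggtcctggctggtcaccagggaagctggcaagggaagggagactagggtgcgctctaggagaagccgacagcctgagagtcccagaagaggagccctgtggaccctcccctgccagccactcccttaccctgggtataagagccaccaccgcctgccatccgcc
The GATA motif was matched in AGR2, ending 113 bases before the start, and in the upstream promoter of HNF4A, ending 20 bases before it. That is 2 of the 8 promoters, and 9.17% of all 35116 promoters hold it in the same window. The TATA box was matched in ANXA10, 23 bases before the start, and in 10.7% of all promoters. An HNF4 motif (CAAAGTCCA) was matched in none of the 8 promoters, against 0.325% of all promoters. These motifs do not overlap one another in the windows shown, and a match is a description of the letters only. Only the exact letters given were searched, so other forms of a motif are left unmarked.

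In the GENCODE annotation of GRCh38 the trefoil genes are neighbours on chromosome 21, in the order TFF3 (42311667-42315651), TFF2 (42346357-42351128) and TFF1 (42362282-42366594), all on the minus strand and together within 54928 bases. GATA6 lies on chromosome 18 (22169443-22202528, plus strand), HNF4A on chromosome 20 (44355700-44434596, plus), AGR2 on chromosome 7 (16791811-16833433, minus), LGALS4 on chromosome 19 (38801671-38813364, minus), TSPAN8 on chromosome 12 (71125085-71441898, minus) and ANXA10 on chromosome 4 (168092515-168187690, plus). Annotated antisense genes overlap GATA6, HNF4A and ANXA10, and LGR5 overlaps the far end of TSPAN8 on the other strand. No source used here says whether counting used strand, so reads of such partners cannot be told apart from those of these 4 genes. GATA6-AS1 itself was listed at a mean of at most 0.193 FPKM in any group.

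Values are FPKM (fragments per kilobase of transcript, scaled to the mapped total of the library), so levels of different genes are compared per length. Genes listed at 1 FPKM or more numbered 10339 to 11531 per library. Absolute depth is unknown, but low values fall in steps that put the libraries' relative depth between 0.949 and 1.03. B4GALT5 stood at 8.70, 8.49 and 8.03 FPKM in AsPC-1 siB4GALT5 libraries, against 38.7, 35.8 and 35.5 FPKM in AsPC-1 siNC. B3GNT3 stood at 1.32, 1.67 and 1.84 FPKM in Capan-1 siB3GNT3, against 13.3, 13.2 and 13.7 FPKM in Capan-1 siNC. In AsPC-1 siB3GNT3 it stood at 2.53 and 2.504 FPKM in replicates 1 and 2 and at 24.2 FPKM in replicate 3, against 22.5, 23.8 and 23.3 FPKM in AsPC-1 siNC. The library labelled AsPC-1 siB3GNT3 replicate 3 thus goes against its label. It differed from the siNC libraries by a root mean square of 0.141 to 0.1499 log2 units over genes, and from replicates 1 and 2 of its own group by 0.453 and 0.465. It was set apart, and results are also given with all libraries as labelled. The libraries kept were kept because the target is low in them, so p-values of B3GNT3 knockdown in AsPC-1 describe those 2 libraries, not the group as labelled.

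Epithelial markers were also checked, since both lines are pancreatic carcinoma lines. All 8 ductal markers reached 1 FPKM in Capan-1, but CDH1, KRT7 and CEACAM5 stayed under 1 FPKM in every AsPC-1 library used, with CDH1 (E-cadherin) at a mean of 17.8 ± 0.787 FPKM in Capan-1 siNC and 0.210 ± 0.0382 FPKM in AsPC-1 siNC (SD, n = 3 each). KRT8, KRT18, KRT19, EPCAM and MUC1 were above 1 FPKM in both. The name AsPC-1 is used below as the labels give it.

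The lines carried different members of the classical set before any knockdown. Capan-1 was high in AGR2, ANXA10, TFF2 and, by less, GATA6 and TFF1, while AsPC-1 was high in HNF4A and LGALS4, and the TSPAN8 ranges of the lines overlapped. Of the 9 genes 8 passed the filter on low values (at least 1 FPKM in at least 3 libraries) and 7 differed between Capan-1 siNC and AsPC-1 siNC at an adjusted p under 0.05, 5 higher and 2 lower in Capan-1, beside 78.1% of all 12236 genes tested. The number called is thus near the share of all genes. The median log2 difference of the 8 was 0.81, against 0.09 for all genes. ANXA10 was at most 0.510 FPKM in every AsPC-1 library and LGALS4 at most 0.267 FPKM in every Capan-1 library. Both passed the filter only through the line where they are high. Their calls, and the count and median that include them, are therefore not independent of the filter. TFF1 passed it only with knockdown libraries in the fit. Fewer cells of a type and less RNA per cell cannot be told apart in these bulk samples.

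**Figure D1:**
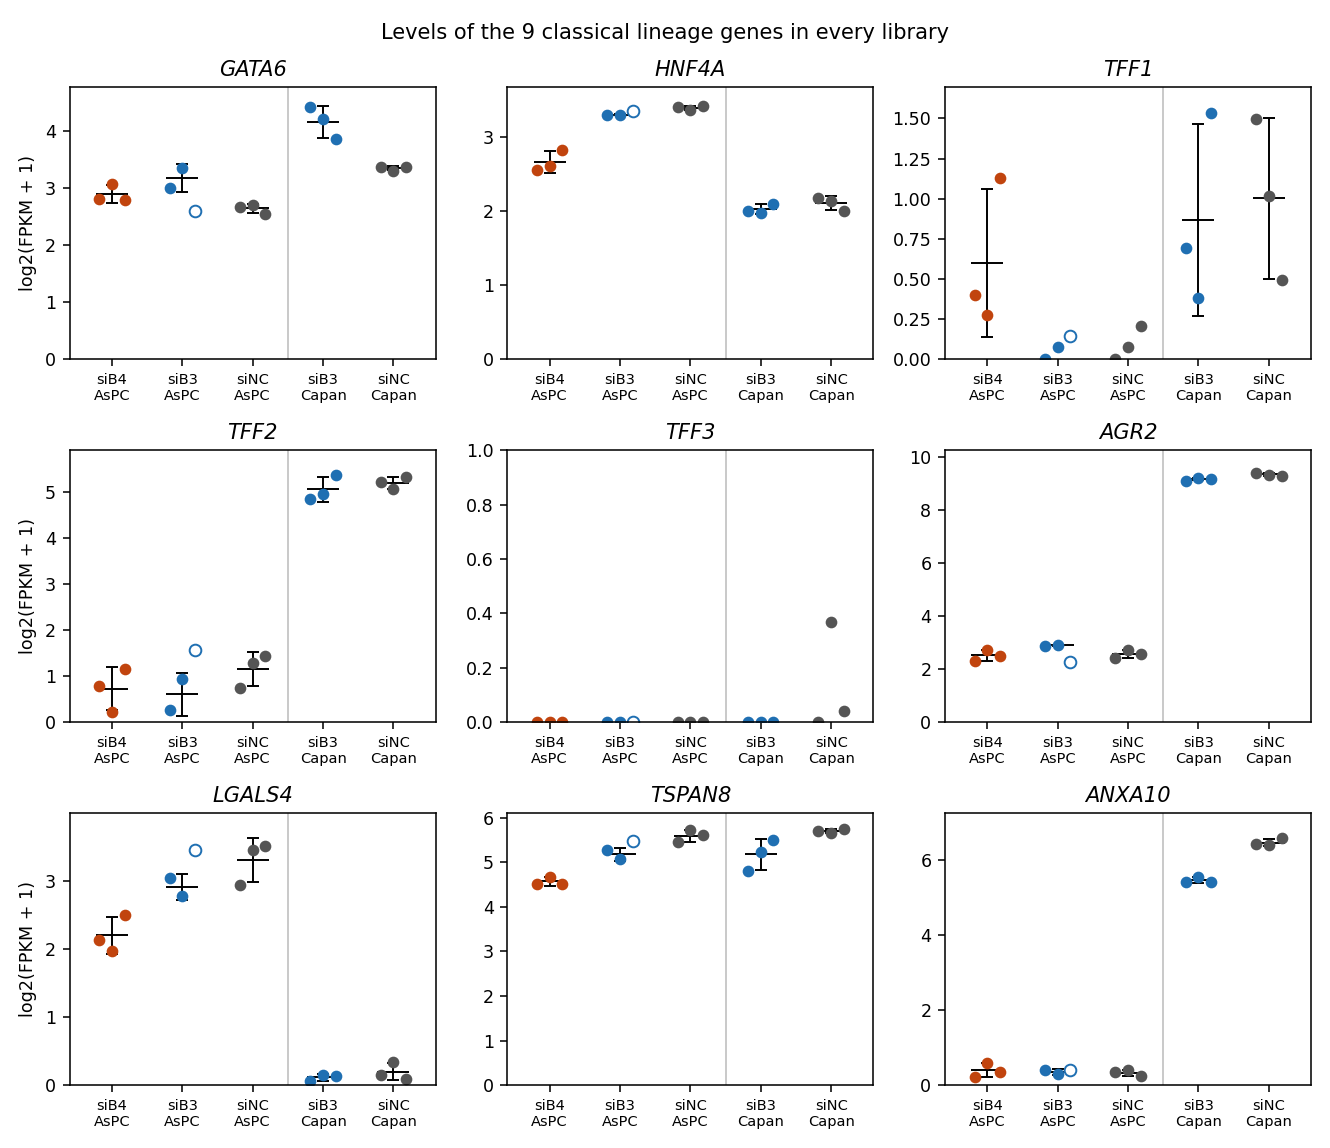
Levels of the 9 genes in every library, as log2(FPKM + 1) on the vertical axis, by group on the horizontal axis (siB4 is siB4GALT5 and siB3 is siB3GNT3), with AsPC-1 left and Capan-1 right of the grey line. Filled points are libraries used, the open point is the library labelled AsPC-1 siB3GNT3 replicate 3, and black marks give mean ± SD of the filled points in groups with no library at 0. AGR2, ANXA10 and TFF2 separate the lines upward in Capan-1, HNF4A and LGALS4 downward, and TSPAN8 overlaps between the siNC groups of the lines.

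GATA6 stood at 9.31, 8.86 and 9.28 FPKM in Capan-1 siNC, against 5.34, 5.53 and 4.83 FPKM in AsPC-1 siNC. All 3 Capan-1 libraries were above all 3 of AsPC-1, with a log2 difference of 0.70 ± 0.13 (SE) and an adjusted p of 0.00017 (limma, on log2 of FPKM + 1). HNF4A stood at 3.51, 3.38 and 3.00 FPKM in Capan-1 siNC, against 9.59, 9.28 and 9.62 FPKM in AsPC-1 siNC. The groups did not overlap, and HNF4A was lower in Capan-1 by a log2 difference of -1.29 ± 0.08 (SE, adjusted p = 1.7e-09 by limma). The pair of transcription factors thus took opposite orders in the lines.

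Among the secreted trefoil factors, TFF2 stood at 36.1, 32.3 and 39.2 FPKM in Capan-1 siNC, against 0.673, 1.44 and 1.72 FPKM in AsPC-1 siNC. Its mean was 28.1-fold higher in Capan-1, and the log2 difference was 4.04 ± 0.24 (SE, adjusted p = 1.39e-09 by limma). TFF1 stood at 1.82, 1.02 and 0.409 FPKM in Capan-1 siNC, against 0, 0.052 and 0.154 FPKM in AsPC-1 siNC. The groups did not overlap and the log2 difference was 0.91 ± 0.29 (SE, adjusted p = 0.011), but without Capan-1 siNC replicate 1 it was 0.66 (adjusted p = 0.0637 by limma). After matching the libraries for relative depth, TFF1 values are whole multiples, within 0.1, of a step of 0.0516 FPKM. They came to 35, 20 and 8 steps in Capan-1 siNC and to 0, 1 and 3 steps in AsPC-1 siNC, and if a step is 1 read, the AsPC-1 values rest on a handful of reads. TFF3 was listed at 0 in 13 of the 15 libraries, and at 0.291 and 0.029 FPKM in Capan-1 siNC replicates 2 and 3, and it was not tested.

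AGR2 had the highest level of the set, at 680, 642 and 628 FPKM in Capan-1 siNC, against 4.36, 5.53 and 4.93 FPKM in AsPC-1 siNC. The ratio of means was 132, and the log2 difference was 6.78 ± 0.09 (SE, adjusted p = 2e-16 by limma). ANXA10 stood at 83.9, 82.8 and 93.8 FPKM in Capan-1 siNC, against 0.285, 0.322 and 0.183 FPKM in AsPC-1 siNC. Its log2 difference of 6.12 ± 0.09 (SE, adjusted p = 5.69e-16 by limma) was the next in size, and it understates the change because a value of 1 was added to low levels.

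LGALS4 took the opposite order. It stood at 0.114, 0.267 and 0.070 FPKM in Capan-1 siNC, against 6.69, 10.03 and 10.5 FPKM in AsPC-1 siNC. The log2 difference was -3.11 ± 0.15 (SE, adjusted p = 2.01e-10 by limma), and no Capan-1 library came near the range of AsPC-1. TSPAN8 stood at 51.0, 49.6 and 52.4 FPKM in Capan-1 siNC, against 42.5, 51.5 and 48.0 FPKM in AsPC-1 siNC. These groups overlapped, and the log2 difference was 0.11 with a 95% interval of -0.17 to 0.39 (adjusted p = 0.459 by limma). In order of mean FPKM, Capan-1 siNC ran AGR2, ANXA10, TSPAN8, TFF2, GATA6, HNF4A, TFF1, LGALS4 and TFF3, with LGALS4 and TFF3 overlapping. AsPC-1 siNC ran TSPAN8, HNF4A, LGALS4, GATA6, AGR2, TFF2, ANXA10, TFF1 and TFF3, where HNF4A overlapped LGALS4, GATA6 overlapped AGR2 and TFF1 met TFF3 at 0.

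**Figure D2:**
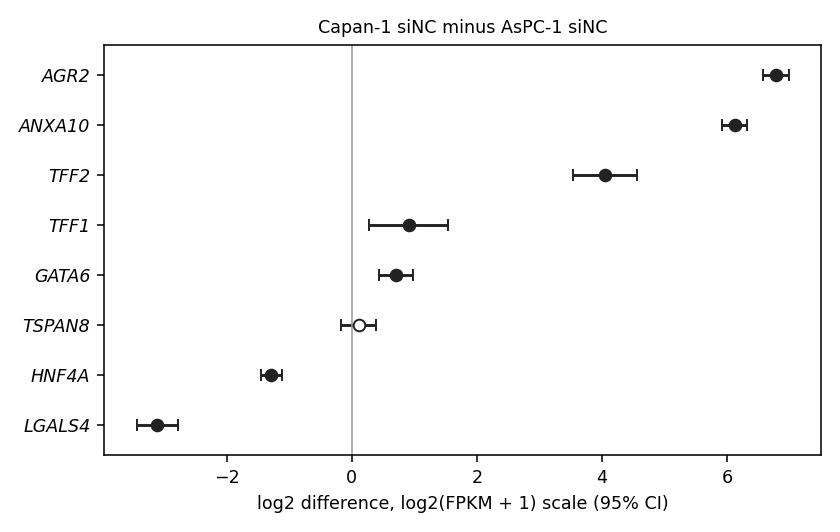
Difference between Capan-1 siNC and AsPC-1 siNC for the 8 genes that passed the filter, on the horizontal axis as log2 of FPKM + 1 with 95% intervals, one gene per row. Filled points have an adjusted p under 0.05. AGR2 (6.78) and ANXA10 (6.12) lie far to the right, TSPAN8 (0.11) spans 0, and HNF4A (-1.29) and LGALS4 (-3.11) lie to the left.

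Other classical signature genes were also divided between the lines. Of 24 that the table holds, 14 passed the filter, and 9 were higher and 5 lower in Capan-1 siNC than in AsPC-1 siNC (median log2 difference 1.21). Over all genes 43.6% were higher and 34.5% lower, with a median of 0.09. MUC5AC, a gastric mucin, had a log2 difference of 5.01 and CEACAM6, a surface adhesion molecule, one of 3.81. MYO1A, a motor of the intestinal brush border, had one of -4.68 and CDH17, the liver-intestine cadherin, one of -3.50. In fits of a single line, 6 of these genes passed the filter in AsPC-1 and 12 in Capan-1. MUC5AC and CEACAM6 passed only through Capan-1 and MYO1A only through AsPC-1. Such calls, and the counts and median that include them, are not independent of the filter. Of 22 endodermal transcription factors 18 were tested, and 15 were higher and 3 lower in Capan-1 (median 1.25), beside the same shares of all genes. FOXA1, a pioneer factor of the endoderm, averaged 11.2 ± 0.393 FPKM in Capan-1 siNC and 0.136 ± 0.0306 FPKM in AsPC-1 siNC. The same limit holds for these factors: 10 passed the filter in AsPC-1 alone and 17 in Capan-1 alone, and FOXA1 passed only through Capan-1. Markers of other cells moved with the line as well: their summed level over 14 genes was 206 to 228 FPKM in Capan-1 siNC and 39.7 to 41.5 FPKM in AsPC-1 siNC. CD68 made up most of the sum, at means of 163 FPKM in Capan-1 siNC and 39.7 FPKM in AsPC-1 siNC. COL1A1 had the largest log2 difference (5.16) and passed the filter only through Capan-1, but COL1A2, COL3A1 and DCN were under 1 FPKM in Capan-1. In all, 10 of the 14 stayed under 1 FPKM there, PTPRC and CD3E among them. The part of these markers in the result was not tested.

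B4GALT5 knockdown lowered HNF4A, LGALS4 and TSPAN8 in AsPC-1. Of the 6 genes that passed the filter, 3 fell and none rose (adjusted p under 0.05). Over all 10775 genes 58.2% were called, 23% lower and 35.2% higher, so the number called is near the share of all genes. The median log2 difference of the 6 was -0.58, against 0.06 for all genes. GATA6, TFF2 and AGR2 did not pass the test.

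HNF4A stood at 4.87, 5.05 and 6.08 FPKM in siB4GALT5, against 9.59, 9.28 and 9.62 FPKM in siNC. All 3 knockdown libraries were below all 3 controls, and the log2 difference was -0.73 ± 0.08 (SE, adjusted p = 4.26e-05 by limma). LGALS4 stood at 3.38, 2.94 and 4.66 FPKM in siB4GALT5, against 6.69, 10.03 and 10.5 FPKM in siNC. It fell by 1.11 on the log2 scale (SE 0.17, adjusted p = 0.00054 by limma). TSPAN8 stood at 21.9, 24.5 and 21.8 FPKM in siB4GALT5, against 42.5, 51.5 and 48.0 FPKM in siNC. Its means were 22.7 ± 1.53 FPKM in siB4GALT5 and 47.3 ± 4.55 FPKM in siNC (SD, n = 3 each), a log2 difference of -1.02 ± 0.08 (SE, adjusted p = 1.03e-05 by limma). All 3 calls were kept under each of the 18 alternatives tried.

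GATA6 stood at 6.02, 7.40 and 5.90 FPKM in siB4GALT5, against 5.34, 5.53 and 4.83 FPKM in siNC. The groups did not overlap, but the log2 difference of 0.25 missed the threshold (adjusted p = 0.073 by limma) and passed it at 0.33 after rescaling to a common sum (adjusted p = 0.0257 by limma). It also passed without siB4GALT5 replicate 3 (0.30, adjusted p = 0.0347) and, at the same difference of 0.25, without siB3GNT3 replicate 1 or 2 from the shared fit (adjusted p = 0.047 and 0.0474 by limma). AGR2 stood at 3.97, 5.67 and 4.69 FPKM in siB4GALT5, against 4.36, 5.53 and 4.93 FPKM in siNC, with a 95% interval of the log2 difference of -0.30 to 0.20. TFF2 ranged from 0.171 to 1.22 FPKM in siB4GALT5, against 0.673 to 1.72 FPKM in siNC (log2 difference -0.43, adjusted p = 0.189 by limma).

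The last 3 genes did not pass the filter in AsPC-1. TFF1 stood at 0.317, 0.209 and 1.18 FPKM in siB4GALT5, against 0, 0.052 and 0.154 FPKM in siNC, which is 6, 4 and 23 steps against 0, 1 and 3. Its groups did not overlap, at levels too low to be tested here. ANXA10 stood at 0.172 to 0.510 FPKM in siB4GALT5 and 0.183 to 0.322 FPKM in siNC, and TFF3 was listed at 0 in all of them.

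B3GNT3 knockdown in AsPC-1, in the 2 libraries kept, raised GATA6 and lowered TSPAN8, AGR2 was higher at the edge of the threshold, and HNF4A, LGALS4 and TFF2 did not pass the test. That is 3 of 6 genes tested, near the 52.9% of all 10775 genes called (32.5% higher and 20.4% lower). The median log2 difference of the 6 was -0.25, against 0.07 for all genes. With all libraries as labelled none of the 6 was called, beside 0% of all 10804 genes called by limma, of which 3011 had an unadjusted p under 0.05.

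GATA6 stood at 6.97 and 9.16 FPKM in siB3GNT3 replicates 1 and 2, against 5.34, 5.53 and 4.83 FPKM in siNC. Both libraries were above all controls, with a log2 difference of 0.53 ± 0.12 (SE, adjusted p = 0.0051), and with all libraries as labelled it was 0.34 (adjusted p = 0.208 by limma). TSPAN8 stood at 37.6 and 32.7 FPKM in siB3GNT3, against 42.5, 51.5 and 48.0 FPKM in siNC. Its log2 difference was -0.42 ± 0.09 (SE, adjusted p = 0.0047), and -0.32 with all libraries as labelled (adjusted p = 0.168 by limma). AGR2 stood at 6.41 and 6.45 FPKM in siB3GNT3, against 4.36, 5.53 and 4.93 FPKM in siNC. Its log2 difference of 0.33 was at the threshold (adjusted p = 0.0498) and was 0.12 with all libraries as labelled (adjusted p = 0.648 by limma). AGR2 passed in 9 of 18 alternatives. Its call was lost with pseudocount 0.1 (0.38, adjusted p = 0.0534), with no filter (0.33, adjusted p = 0.138), with median-ratio scaling (0.25, adjusted p = 0.109) and with no intensity trend (0.33, adjusted p = 0.0522 by limma). It was also lost without siB3GNT3 replicate 1 (0.33, adjusted p = 0.152), siNC replicate 1 (0.26, adjusted p = 0.147) or siNC replicate 3 (0.33, adjusted p = 0.0998 by limma). Without siB3GNT3 replicate 2, when 1 library was left and was assumed to vary like the others, GATA6 was at 0.36 (adjusted p = 0.0632), TSPAN8 at -0.32 (adjusted p = 0.0583) and AGR2 at 0.32 (adjusted p = 0.164 by limma), so that none of the 3 passed.

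HNF4A stood at 8.83 and 8.78 FPKM in siB3GNT3, against 9.59, 9.28 and 9.62 FPKM in siNC, just below all controls, with a log2 difference of -0.10 and a 95% interval of -0.29 to 0.09 (adjusted p = 0.358 by limma). LGALS4 stood at 7.28 and 5.86 FPKM in siB3GNT3, against 6.69, 10.03 and 10.5 FPKM in siNC. Its log2 difference of -0.40 missed the threshold (adjusted p = 0.115) but passed it without siNC replicate 1, its lowest control, at -0.58 (adjusted p = 0.0218), and without siB4GALT5 replicate 3 from the shared fit, at the same -0.40 (adjusted p = 0.0463 by limma). TFF2 stood at 0.209 and 0.908 FPKM in siB3GNT3, against 0.673 to 1.72 FPKM in siNC. TFF1, ANXA10 and TFF3 were each at most 0.334 FPKM in both libraries. The library labelled replicate 3 was within the siNC range for GATA6 (5.06 FPKM), LGALS4 (10.04 FPKM) and TSPAN8 (43.4 FPKM). TFF1 and TFF3 were within it too, near the floor at 0.103 and 0 FPKM. HNF4A, at 9.18 FPKM in that library, was just below the range, and TFF2 (1.98 FPKM) and ANXA10 (0.336 FPKM) were above it. AGR2, at 3.84 FPKM in that library, was below every control.

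Both knockdowns in AsPC-1 share the same siNC libraries, so their differences from control are not independent of each other. B3GNT3 itself was above its control level in siB4GALT5, at a mean of 30.3 FPKM against 23.2 FPKM in siNC (log2 difference 0.37, adjusted p = 0.00089 by limma). Set directly against each other, siB4GALT5 was lower than siB3GNT3 (replicates 1 and 2) in 4 of 6 genes tested and higher in none. Over all 10775 genes 35.2% were called, 17.4% lower and 17.8% higher. HNF4A had a log2 difference of -0.64 ± 0.09 (SE, adjusted p = 0.00051) and TSPAN8 one of -0.61 ± 0.09 (SE, adjusted p = 0.0012 by limma). LGALS4 was at -0.71 (adjusted p = 0.0198) and AGR2 at -0.37 (adjusted p = 0.042 by limma). The calls of LGALS4 and AGR2 were both lost without siB4GALT5 replicate 1, at -0.67 (adjusted p = 0.0535) and -0.27 (adjusted p = 0.111 by limma). The same pair was lost without siB3GNT3 replicate 1, at -0.57 for LGALS4 (adjusted p = 0.148) and -0.38 for AGR2 (adjusted p = 0.152 by limma). LGALS4 was lost without siB4GALT5 replicate 2 (-0.60, adjusted p = 0.0561), and AGR2 without siB3GNT3 replicate 2 (-0.37, adjusted p = 0.160) and without siNC replicate 3 (-0.37, adjusted p = 0.0653 by limma). GATA6, at -0.28, was not called (adjusted p = 0.104 by limma) and passed the threshold without siB3GNT3 replicate 1 (-0.46, adjusted p = 0.0439) or siB4GALT5 replicate 2 (-0.37, adjusted p = 0.0436).

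Genes known as targets of HNF4A in liver and gut were read beside it in AsPC-1, where 8 of the 24 in the table passed the filter. With B4GALT5 knockdown 4 fell and 1 rose (median log2 difference -0.24), and with B3GNT3 knockdown none fell and 2 rose (median 0.24). Over all genes 23% fell and 35.2% rose with B4GALT5 knockdown, and 20.4% fell and 32.5% rose with B3GNT3 knockdown, so 5 calls of 8 with B4GALT5 are near the 58.2% of all genes. CDHR2 and CDHR5, cadherins that link microvilli of the brush border, averaged 22.9 ± 0.639 and 4.55 ± 1.63 FPKM in siB4GALT5, against 31.6 ± 0.941 and 8.45 ± 0.694 FPKM in siNC (SD, n = 3 each). CIDEB, a protein of lipid droplets, averaged 4.18 ± 0.861 FPKM in siB4GALT5, against 7.32 ± 0.828 FPKM in siNC, and MYO7B, a brush-border myosin, fell by 0.30 on the log2 scale (adjusted p = 0.035 by limma). F12, coagulation factor XII, was the gene that rose (0.19, adjusted p = 0.048 by limma). With B3GNT3 knockdown CDHR2 rose by 0.37 (adjusted p = 0.00046) and CIDEB by 0.52 (adjusted p = 0.0099 by limma). Set directly against siB3GNT3, 6 of the 8 were lower in siB4GALT5, 1 was higher and 1 was not called. The median log2 difference was -0.48 against -0.004 for all genes, of which 17.4% were lower and 17.8% higher.

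**Figure D3:**
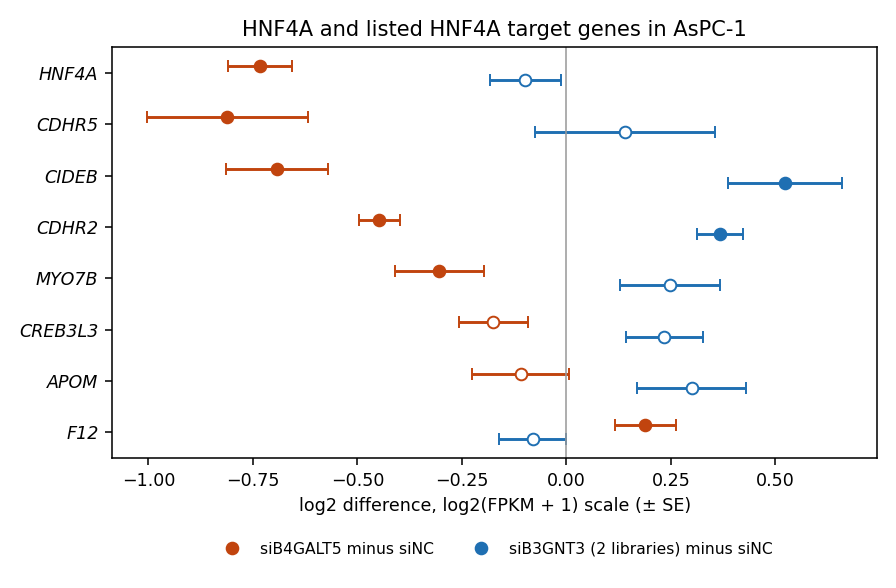
HNF4A and the 7 listed target genes that differed between siB4GALT5 and siB3GNT3 in AsPC-1 (6 lower and 1 higher in siB4GALT5), as log2 difference from siNC on the log2(FPKM + 1) scale with standard errors, one gene per row. Orange is siB4GALT5, blue is siB3GNT3 replicates 1 and 2, and filled points have an adjusted p under 0.05. CDHR5, CIDEB, CDHR2 and MYO7B lie left of 0 with HNF4A for siB4GALT5. For siB3GNT3 these target genes lie right of 0, but only CDHR2 and CIDEB were called. The targets shown were picked by the direct difference, so that the colours lie apart is set by the choice.

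Other classical signature genes in AsPC-1 were split in direction. With B4GALT5 knockdown 2 of 6 tested rose and 2 fell (median -0.10), and with B3GNT3 knockdown 3 rose and 1 fell (median 0.27). Over all genes 58.2% and 52.9% were called, so these counts are near the share of all genes. CLRN3, a tetraspan protein, averaged 5.27 ± 0.655 FPKM in siB4GALT5 and 16.7 ± 1.32 FPKM in siNC (SD, n = 3 each), a log2 difference of -1.50. S100P, a calcium-binding protein, rose in both, by 1.58 with siB4GALT5 and by 2.18 with siB3GNT3 (adjusted p = 0.00013 and 4.64e-05 by limma). The summed markers of other cells were at 49.6 to 53.2 FPKM in siB4GALT5 and 53.0 to 53.9 FPKM in siB3GNT3, against 39.7 to 41.5 FPKM in siNC. CD68 was the only one of the 14 above 1 FPKM, and its part in these results was not tested.

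In Capan-1, B3GNT3 knockdown raised GATA6 and lowered ANXA10. TSPAN8 and AGR2 were also called lower, but these calls were kept in only 9 and 4 of 14 alternatives. Of the 7 genes tested 1 rose, 3 fell and 3 did not pass the test. Over all 11493 genes 32.9% were called, 18.7% higher and 14.2% lower. The median log2 difference was -0.14, against 0.02 for all genes.

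ANXA10 stood at 41.4, 45.6 and 41.7 FPKM in siB3GNT3, against 83.9, 82.8 and 93.8 FPKM in siNC. Its means were 42.9 ± 2.38 FPKM in siB3GNT3 and 86.8 ± 6.10 FPKM in siNC (SD, n = 3 each). The log2 difference was -1.0 ± 0.07 (SE, adjusted p = 0.000125 by limma), and it passed the threshold under all 14 alternatives, between -1.04 and -0.94. GATA6 stood at 20.3, 17.4 and 13.5 FPKM in siB3GNT3, against 9.31, 8.86 and 9.28 FPKM in siNC. Its means were 17.1 ± 3.43 FPKM in siB3GNT3 and 9.15 ± 0.254 FPKM in siNC (SD, n = 3 each), and the log2 difference of 0.81 ± 0.13 (SE, adjusted p = 0.0030 by limma) also passed under all 14.

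TSPAN8 stood at 27.0, 36.5 and 43.9 FPKM in siB3GNT3, against 51.0, 49.6 and 52.4 FPKM in siNC. The groups did not overlap, with a log2 difference of -0.53 ± 0.15 (SE, adjusted p = 0.029 by limma). The call was lost without siNC replicate 1 (-0.53, adjusted p = 0.0872), siNC replicate 2 (-0.55, adjusted p = 0.0769), siNC replicate 3 (-0.51, adjusted p = 0.0929 by limma) or siB3GNT3 replicate 2 (-0.55, adjusted p = 0.0685). AGR2 stood at 553, 588 and 581 FPKM in siB3GNT3, against 680, 642 and 628 FPKM in siNC. Its log2 difference of -0.18 ± 0.06 (SE, adjusted p = 0.046) passed in 4 of 14 alternatives, with adjusted p between 0.0258 and 0.171 over all of them, and was lost without any one of the libraries but siB3GNT3 replicate 3 (-0.15 to -0.20 without each of the other 5, by limma). The libraries of Capan-1 siB3GNT3 were not alike. The one with the least B3GNT3 (1.32 FPKM) had the most GATA6 and the least TSPAN8. The one with the most B3GNT3 (1.84 FPKM) had the least GATA6 and the most TSPAN8. ANXA10 and AGR2 did not take this order, with their highest values (45.6 and 588 FPKM) in the remaining library. Such an order in 3 libraries can arise by chance and was not tested.

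HNF4A stood at 3.01, 2.92 and 3.27 FPKM in Capan-1 siB3GNT3, against 3.51, 3.38 and 3.00 FPKM in siNC, with a 95% interval of the log2 difference of -0.27 to 0.11. TFF2 stood at 27.8, 30.0 and 40.2 FPKM in siB3GNT3, against 36.1, 32.3 and 39.2 FPKM in siNC. It overlapped its control (log2 difference -0.14, adjusted p = 0.432) but passed the threshold without siB3GNT3 replicate 3, its highest knockdown library, at -0.30 (adjusted p = 0.0124 by limma). TFF1 spread from 0.300 to 1.90 FPKM in siB3GNT3, against 0.409 to 1.82 FPKM in siNC, so that no difference was detectable (95% interval -0.88 to 0.61). LGALS4 stood at 0.042, 0.110 and 0.104 FPKM in siB3GNT3, against 0.114, 0.267 and 0.070 FPKM in siNC, and was not tested.

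**Figure D4:**
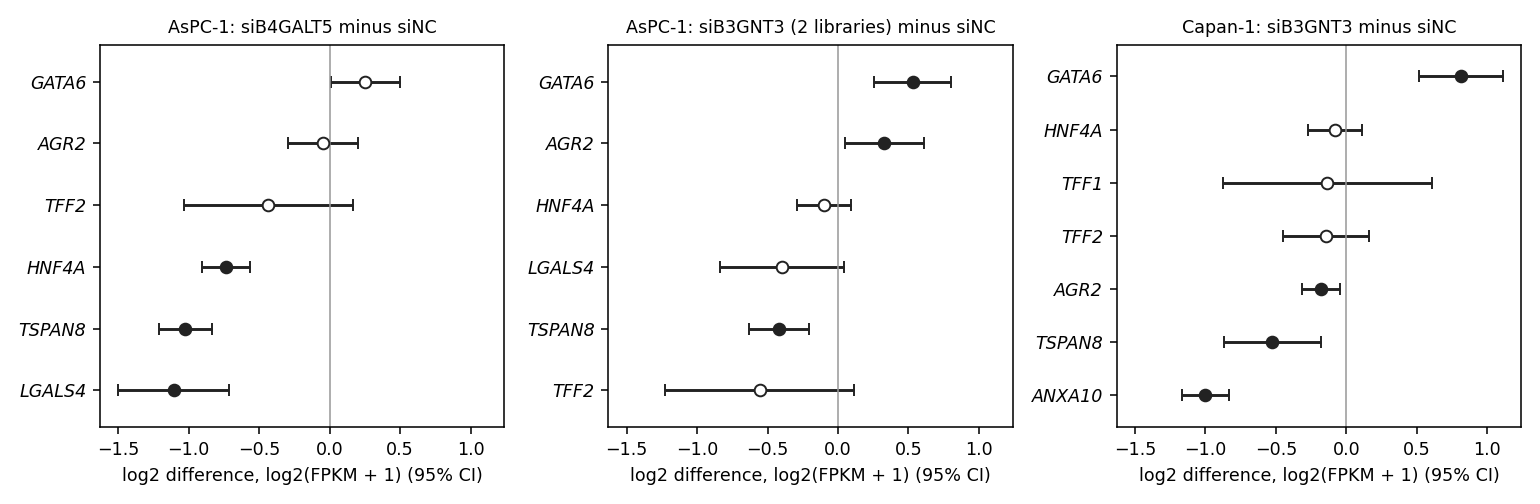
Log2 difference from siNC on the log2(FPKM + 1) scale, with 95% intervals, for the genes that passed the filter: siB4GALT5 in AsPC-1 (left), siB3GNT3 replicates 1 and 2 in AsPC-1 (middle) and siB3GNT3 in Capan-1 (right), one gene per row, ordered by value within each panel. Filled points have an adjusted p under 0.05. TSPAN8 lies left of 0 in all 3 panels, GATA6 right of 0 in all 3 and called in the last 2, and HNF4A left of 0 and called in the first.

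The response to B3GNT3 knockdown was then compared between Capan-1 and AsPC-1 by an interaction. Of 8 genes in the fit 2 passed the threshold, AGR2 and ANXA10, both lower in the Capan-1 response, beside 32.8% of all 12236 genes called, so their share is no higher than that of all genes. AGR2 had a log2 difference of -0.18 in Capan-1 and 0.33 in AsPC-1, and the difference between these was -0.51 ± 0.14 (SE, adjusted p = 0.0136), or -0.30 (adjusted p = 0.382 by limma) with all libraries as labelled. ANXA10 differed by -1.02 ± 0.14 (SE, adjusted p = 0.000138 by limma), but it was at most 0.334 FPKM in the AsPC-1 libraries of both groups and passed the filter only through Capan-1. Its interaction therefore repeats the fall in Capan-1 and does not show that the lines answer differently. For GATA6 the difference between the lines' responses was 0.28 with a 95% interval of -0.13 to 0.70, and for TSPAN8 it was -0.11 with an interval of -0.53 to 0.32. GATA6 passed without Capan-1 siB3GNT3 replicate 3 (0.43, adjusted p = 0.0452 by limma).

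Of 12 other classical signature genes tested in Capan-1 4 fell, 1 rose and 7 were not called (median -0.13), beside 14.2% of all genes lower and 18.7% higher. GPX2, a gut glutathione peroxidase, averaged 1.92 ± 1.22 FPKM in siB3GNT3 and 6.4 ± 0.809 FPKM in siNC (SD, n = 3 each), and CEACAM6 (-0.56), LYZ, which is lysozyme (-0.48), and CDH17 (-0.27) also fell. S100P was the one that rose, by 0.86 (adjusted p = 0.0046 by limma). HNF4A target genes gave 1 rise, that of fibrinogen beta chain (FGB, 0.74, adjusted p = 0.013 by limma), and no fall among 6 tested. Markers of other cells were at 251 to 288 FPKM summed in siB3GNT3, against 206 to 228 FPKM in siNC. COL1A1 (0.59) and ACTA2 (0.38) were called higher, and 10 of 14 were under 1 FPKM, COL1A2, COL3A1 and DCN among them. The part of these markers in the results was not tested.

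The genes with the nearest profile to each member were looked up over 4 differences (Capan-1 siNC minus AsPC-1 siNC, and the 3 knockdowns minus siNC). They were picked as the nearest of all genes on 4 values, so that they lie close is set by the choice and is a description only. The likeness is the root mean square gap over these 4 log2 differences, among genes that averaged at least 5 FPKM in a group. Nearest to GATA6 was TLE1, a transcriptional corepressor, at 0.083, and nearest to HNF4A was ABHD6, a monoacylglycerol lipase, at 0.079. HCFC1R1 was nearest to TSPAN8 (0.13), HR, a corepressor of nuclear receptors, to LGALS4 (0.23), HIF1A, the hypoxia-inducible factor, to TFF2 (0.12), and the keratin KRT4 to ANXA10 (0.17). TLE1 averaged 20.8 ± 3.46 FPKM in Capan-1 siB3GNT3 and 11.7 ± 0.470 FPKM in Capan-1 siNC (SD, n = 3 each), beside GATA6 at 17.1 and 9.15 FPKM.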

How the data were processed

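RNA was sequenced from 15 libraries, and the authors deposited 1 table of FPKM values per gene and library. Per the submitters' processing notes, Bowtie2, RSEM 1.3.1, DESeq2 1.4.5 and GRCh38 were used, with no role given for each, and no source used here names the annotation. FPKM were taken as deposited. Differences were tested with limma 3.58.1 (R 4.3.3, intensity trend) on log2(FPKM + 1), a pseudocount of 1, for genes with at least 1 FPKM in at least 3 libraries of a fit, with Benjamini-Hochberg adjustment over all genes and a threshold of 0.05. The 8 AsPC-1 libraries left after replicate 3 of siB3GNT3 was set apart were fitted together, the 6 Capan-1 libraries alone, and comparisons between lines in all 14. Fold changes on this scale understate changes of low genes. The code was tested on simulated data.

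The members and the gene lists, written from general knowledge, were chosen with earlier results of these data known. Named are all members, both targets, up to 4 genes per list and comparison with the smallest p, the 3 nearest profiles per member and chromosomal neighbours of TFF1, TFF2, TFF3 and AGR2; some genes picked by this rule are not reported here, and a few list members were named after their values were seen. Of 3998 genes with low values looked at, 75.1% had whole multiples of 1 step in all libraries (tolerance 0.1), so relative but not absolute depth is known. Alternatives were pseudocount 0.1, no filter, no intensity trend, a replicate block, a filter of 5 FPKM, scaling by median ratios or to a common sum, all libraries as labelled, other sets of groups, and each library left out.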

Additional observations from a re-analysis of the deposited data

Results flagged for a closer look

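For AGR2 and ANXA10 the difference between the lines in the response to B3GNT3 knockdown passed the threshold when it was tested itself (the interaction in limma). For AGR2 the response in Capan-1 minus that in AsPC-1 was -0.51 on the log2 scale (SE 0.14, adjusted p = 0.0136). All 3 Capan-1 siB3GNT3 libraries lay below all controls and both AsPC-1 siB3GNT3 libraries kept lay above theirs, and with all libraries as labelled the difference was -0.30 (adjusted p = 0.382 by limma). For ANXA10 it was -1.02 (SE 0.14, adjusted p = 0.000138), but AsPC-1 levels were at most 0.334 FPKM throughout these groups, so the value repeats the fall in Capan-1 and does not show that the lines answer differently.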

How the results depend on the processing

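The members called differed with these settings. B3GNT3 knockdown in AsPC-1 gave 0 with all libraries as labelled and 0 to 4 when each library was left out in turn, with 0 without siB3GNT3 replicate 2. In Capan-1 it gave 2 with no filter and 2 to 5 with a library left out, with 2 without any siNC library or siB3GNT3 replicate 2. The interaction gave 1 with all libraries as labelled, and siB4GALT5 against siB3GNT3 gave 2 with no filter and 2 to 4 with a library left out. The 3 members lowered by B4GALT5 knockdown and the 7 that differ between lines numbered at least 3 and at least 6 in every alternative tried. Between lines TFF1 was lost (0.66, adjusted p = 0.0637 by limma, without Capan-1 siNC replicate 1).

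Directions turned only where no call was made. AGR2 with B4GALT5 knockdown was at 0.027 after rescaling to a common sum and at -0.16 to 0.056 with a library left out. In the interaction, HNF4A was at -0.032 after rescaling and at -0.033 to 0.055 with a library left out, TFF1 at 0.029 with pseudocount 0.1 and at -0.41 to 0.17, and TSPAN8 at -0.26 to 0.078 with a library left out. TFF1 with B3GNT3 knockdown in Capan-1 ran from -0.39 to 0.11. TFF2 in siB4GALT5 against siB3GNT3 was at -0.20 with all libraries as labelled and at -0.21 to 0.45 with a library left out. The cause was not tested.

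Replicate numbers are shared by the groups and were not taken as pairs, since deviations of same-numbered libraries correlated at -0.0581 to 0.0599. The numbers are those of the sample titles, and the library names carry other numbers in part. Equal numbers therefore need not mark libraries handled together. As a hint from the data that a weak pairing may be present in one comparison, every one of 6 AsPC-1 siB4GALT5 and siNC libraries correlated best with its own number, and 0 of 6 in Capan-1. With the replicate block GATA6 passed with B4GALT5 knockdown (0.25, adjusted p = 0.0230), AGR2 did not in Capan-1 (-0.18, adjusted p = 0.109 by limma), and uncalled HNF4A in the interaction (-0.027) and TFF2 in siB4GALT5 against siB3GNT3 (-0.057) turned sign.

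Over all genes, B3GNT3 knockdown in AsPC-1 gave 0 calls as labelled against 5697. In Capan-1 there were 2069, 2083 and 2112 calls without siNC replicate 1, 2 or 3 and 5715 without siB3GNT3 replicate 3, against 3786. The interaction gave 1204 as labelled against 4009, and siB4GALT5 against siB3GNT3 gave 1716 as labelled and 2134 and 2190 without siB3GNT3 replicate 1 or 2, against 3789. Median-ratio scaling evened the calls higher and lower to 3102 and 3131 with B4GALT5 knockdown (3794 and 2477 as deposited; 4576 and 1881 after rescaling) and to 2816 and 2836 with B3GNT3 knockdown in AsPC-1 (3504 and 2193; 4355 and 1675). In the interaction it gave 2186 and 1896 (1690 and 2319 as deposited). Rescaling put the median of all genes between lines at 0.23 in place of 0.09. Absolute depth is unknown, which limits TFF1, TFF3 and the low-level genes of each line.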

Other observations

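Endodermal transcription factors other than GATA6 and HNF4A were also counted. In AsPC-1, 6 of 10 tested rose and 2 fell with B4GALT5 knockdown (median log2 difference 0.44), beside 35.2% higher and 23% lower among all genes. With B3GNT3 knockdown 7 rose and none fell (median 0.41), beside 32.5% higher and 20.4% lower. KLF4, a factor of epithelial differentiation, averaged 58.2 ± 7.40 FPKM in siB4GALT5, against 17.1 ± 0.509 FPKM in siNC (SD, n = 3 each), and SOX9, a ductal and progenitor factor, averaged 29.4 ± 0.613 FPKM in siB4GALT5, against 15.7 ± 0.303 FPKM in siNC. In Capan-1, 6 of 17 rose and 1 fell with B3GNT3 knockdown (median 0.18), beside 18.7% higher and 14.2% lower among all genes. FOXA2, a pioneer factor of the endoderm, averaged 3.91 ± 0.796 FPKM in siB3GNT3 and 1.86 ± 0.240 FPKM in siNC, while SOX9 was the one that fell, to 13.1 ± 0.379 FPKM in siB3GNT3, against 21.2 ± 2.10 FPKM in siNC (SD, n = 3 each). The interaction for SOX9 was -1.38 (adjusted p = 1.11e-06 by limma). Of 12 basal-like signature genes tested in AsPC-1, 2 rose and 5 fell with B4GALT5 knockdown and 3 rose and 5 fell with B3GNT3 knockdown, beside 58.2% and 52.9% of all genes called. In Capan-1, 2 of 16 rose and 6 fell, beside 32.9%. With B4GALT5 knockdown the keratin KRT17 stood at 70.7 ± 6.33 FPKM in siB4GALT5 and 6.93 ± 0.842 FPKM in siNC, and KRT5 fell by 1.18 on the log2 scale. With B3GNT3 knockdown KRT17 had a log2 difference of -1.22 in Capan-1 (adjusted p = 0.00033 by limma) and 2.52 in AsPC-1 (adjusted p = 6.42e-07 by limma).

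Neighbours on the chromosome were read beside AGR2 and the trefoil genes. TSPAN13, 7275 bases from AGR2, also differed between lines, at 58.4 ± 2.24 FPKM in Capan-1 siNC and 1.402 ± 0.0896 FPKM in AsPC-1 siNC. Over all genes 78.1% differed between the lines. TSPAN13 was also lower in Capan-1 siB3GNT3 (44.1 ± 5.79 FPKM, log2 difference -0.40, adjusted p = 0.014 by limma). BZW2, beyond TSPAN13, averaged 66.3 FPKM in Capan-1 siNC and 64.1 FPKM in AsPC-1 siNC, and 49.9 FPKM in Capan-1 siB3GNT3. AGR3, the paralogue on the other side of AGR2, was listed at 0 in every AsPC-1 group. It averaged 0.157 FPKM in Capan-1 siB3GNT3 and 0.209 FPKM in Capan-1 siNC. AHR, beyond AGR3, averaged 21.2 FPKM in Capan-1 siNC and 1.705 FPKM in AsPC-1 siNC. Unlike AGR2, its mean was higher in Capan-1 siB3GNT3, at 36.7 FPKM. TMPRSS3, 5243 bases from TFF1, was higher in Capan-1 siNC than in AsPC-1 siNC, at means of 2.95 and 0.119 FPKM (log2 difference 1.82, adjusted p = 9.02e-11 by limma), as TFF2 was. TMPRSS3 passed the filter only through Capan-1, so its call is not independent of the filter. ABCG1, 14423 bases from TFF3, was low in both, at means of 0.218 and 0.251 FPKM.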
